A study of Arabidopsis thaliana with 3 samples.

Results

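Copia retrotransposons are described here by the 24-nt small RNAs that the authors counted over regions of differential DNA methylation in Arabidopsis thaliana. A region was taken as Copia when every repeat name listed for it began with ATCOPIA, META1, ENDOVIR1, ATRE1, TA1-2 or ROMANIAT5, whatever gene was listed beside it. This gave 271 of 4481 distinct regions (6.05%), in 152 annotated elements of 67 families, and 6 further regions that also listed a repeat of another kind were left out. META1 supplied 61 regions, 13 other families supplied 5 or more each, and 25 families supplied 1 region. No region listed TA1-2, ATCOPIA21 or ATCOPIA93, the family of the mobile element EVADE. The members were 58 to 400 bp wide, with a median of 100 bp.

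Small RNA was sequenced from 10-day-old seedlings grown in liquid medium under 16 h light and 8 h dark. The 3 genotypes were WT (Col), ddb2-3 (the insertion line DsLoxHs195_05H) and nrpd1a (the insertion line Salk_583051), with 1 library each. DDB2 is a damage sensor of the global genome branch of nucleotide excision repair, and NRPD1 forms the catalytic core of the plant RNA polymerase IV (Pol IV). No genotype difference therefore has a replicate check, and the intervals of sums and ratios cover counting error in these libraries only. Whole seedlings do not show whether fewer cells or less RNA per cell lies behind a lower value.

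Copia elements are long terminal repeat (LTR) retrotransposons: an RNA transcribed from one LTR to the other is copied into DNA and inserted elsewhere. In plants Pol IV transcribes silent elements, and the products are cut into 24-nt siRNAs that guide cytosine methylation in the CG, CHG and CHH contexts (H is A, C or T) to matching DNA. ATCOPIA78, called ONSEN, is transcribed after heat and is known to insert new copies in the offspring of heated plants that lack these siRNAs.

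The level of a region is given in RPM, its reads scaled to a total of the library. Which reads make up that total is not stated. A single read was worth 0.169 RPM in the WT library, 0.120 RPM in that of ddb2-3 and 0.727 RPM in that of nrpd1a. These values follow from totals of 5913669, 8345931 and 1376238 reads, the smallest being that of nrpd1a. A floor of 3 reads equals 0.507, 0.359 and 2.18 RPM. The Copia regions held 34200 WT reads, 45886 ddb2-3 reads and 154 nrpd1a reads. Copies of a family share sequence: in 61 of the 271 regions at least 90% of the 24-base words were unique in the genome. Where a read with several hits was counted at each copy, members are not separate observations and the intervals are too narrow.

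The sequences on which the results turn are printed from the TAIR10.1 RefSeq reference, 5′ to 3′, each turned to the strand that matches its group. The first 4 are the regions of META1 with the highest WT levels, shown because they held most of that family's siRNA reads in WT. Capitals mark the 49 bases common to all 4, a stretch that occurs 18 times in the genome and in no other Copia region.
META1 chr4:7821601-7821792, plus strand: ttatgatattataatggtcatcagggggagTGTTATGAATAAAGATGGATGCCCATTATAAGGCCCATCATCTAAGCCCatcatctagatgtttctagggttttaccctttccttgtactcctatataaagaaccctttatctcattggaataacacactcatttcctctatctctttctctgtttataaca
META1 chr3:16039101-16039200, minus strand: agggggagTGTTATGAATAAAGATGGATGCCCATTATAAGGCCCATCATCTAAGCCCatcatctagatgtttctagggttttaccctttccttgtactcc
META1 chr1:6538418-6538500, plus strand: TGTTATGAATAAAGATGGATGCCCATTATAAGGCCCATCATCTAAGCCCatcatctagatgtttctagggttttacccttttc
META1 chr3:14957101-14957200, minus strand: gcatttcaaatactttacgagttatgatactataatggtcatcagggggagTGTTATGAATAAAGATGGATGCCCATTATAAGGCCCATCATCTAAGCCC

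The next pair are ATCOPIA78 regions at 175 and 176 RPM in WT, against 410 to 458 RPM in the META1 regions above. They are shown as the contrast to META1, to which they are not matched in level. Capitals mark the longest stretch common to both, 40 bases that occur 15 times in the genome.
ATCOPIA78 chr3:22059601-22059700, plus strand: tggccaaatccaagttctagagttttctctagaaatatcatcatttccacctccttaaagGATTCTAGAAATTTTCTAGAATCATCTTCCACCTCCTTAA
ATCOPIA78 chr1:7722201-7722500, plus strand: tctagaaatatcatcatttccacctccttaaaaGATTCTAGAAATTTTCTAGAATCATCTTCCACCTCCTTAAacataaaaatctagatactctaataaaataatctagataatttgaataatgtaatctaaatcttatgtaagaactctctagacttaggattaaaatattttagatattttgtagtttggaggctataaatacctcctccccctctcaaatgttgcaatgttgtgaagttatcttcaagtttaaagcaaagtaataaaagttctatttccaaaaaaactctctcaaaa

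The last pair are the regions with the most extreme ddb2-3 to WT ratios among well covered members. In ATCOPIA23 the capitals mark a CHH-hypo region of 100 bases inside the CG-hypo region printed, and in ATCOPIA68 they mark a run of 132 bases that repeats the letters GA.
ATCOPIA23 chr3:22232501-22232700, plus strand: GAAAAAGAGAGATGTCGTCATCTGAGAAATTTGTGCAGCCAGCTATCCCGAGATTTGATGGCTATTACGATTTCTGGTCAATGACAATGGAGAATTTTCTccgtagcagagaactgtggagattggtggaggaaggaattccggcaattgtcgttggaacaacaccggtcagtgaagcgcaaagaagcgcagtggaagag
ATCOPIA68 chr1:16673531-16673695, plus strand: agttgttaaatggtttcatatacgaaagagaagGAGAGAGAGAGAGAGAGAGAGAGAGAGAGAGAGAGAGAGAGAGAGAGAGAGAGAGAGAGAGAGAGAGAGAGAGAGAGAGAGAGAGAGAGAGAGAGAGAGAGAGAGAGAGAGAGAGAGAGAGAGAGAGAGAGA

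Copia siRNAs as a whole differed little between the ddb2-3 and WT libraries, and the sign of the difference depended on how members were weighed. The mean WT level was 21.3 RPM and the mean ddb2-3 level 20.3 RPM, and the medians were 5.07 and 5.51 RPM. The log2 ratio of the summed levels was -0.073 (95% interval -0.093 to -0.053). By contrast 153 regions were above WT and 118 below it. The median log2 ratio of single regions, taken on log2(RPM + 1), was 0.073 (0.0037 to 0.16 by ranks of regions). An interval by ranks takes regions as separate observations, which copies that share sequence and regions of the same element are not. Among all regions 63.4% were above WT, the summed log2 ratio outside Copia was 0.14 (0.14 to 0.15) and the median 0.17. Over 1240 Gypsy regions, the other large group of LTR retrotransposons, the summed log2 ratio was 0.47 and over 1168 regions of Helitron DNA transposons -0.040. These groups differ in position: 95.9% of Gypsy, 46.9% of Copia and 37.0% of Helitron regions lay within 3 Mb of a centromere. The 51 Gypsy regions farther away had 0.15 (0.10 to 0.21).

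The typical region of the whole data had 1.15 times its WT level in ddb2-3, or 0.20 on the log2 scale. Relative to that region the Copia sum was -0.27 and the Copia median -0.083, so the median changed sign under this scaling. By a size rule of 2-fold on log2(RPM + 1), 12 Copia regions were higher in ddb2-3 and 6 were lower, where 5.22% of all regions were called higher and 1.67% lower. An exact binomial test of the read numbers, Benjamini-Hochberg adjusted over all regions, which compares these 2 libraries and not the genotypes, called 34 Copia regions higher (12.5%, against 19.3% of all regions) and 23 lower (8.49%, against 7.03%).

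**Figure D1:**
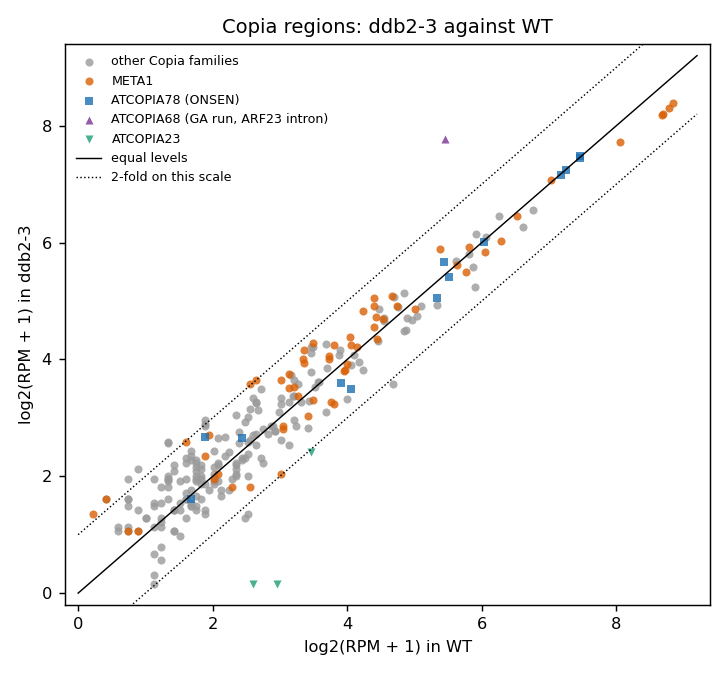
Level of each of the 271 Copia regions in WT (x axis) and ddb2-3 (y axis), both as log2(RPM + 1), with equal levels on the solid line and 2-fold on the dotted lines. Most points lie near the line, the 4 highest META1 regions lie below it, ATCOPIA68 lies far above it and 2 of the 3 nested ATCOPIA23 regions lie near 0 in ddb2-3.

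META1 carried 53.3% of the Copia level in WT and 47.8% in ddb2-3, and its 4 strongest regions were all lower in ddb2-3. The region on chromosome 4 (7821601 to 7821792, in the transposon gene AT4G13455) stood at 458 RPM in the WT library, 333 RPM in that of ddb2-3 and 5.09 RPM in that of nrpd1a. A chromosome 3 region (16039101 to 16039200, 1885 bp upstream of AT3G44380) had 442, 315 and 5.09 RPM in the same order. The chromosome 1 region (6538418 to 6538500, 273 bp upstream of AT1G18910) had 414, 295 and 1.45 RPM. These 3 and the second chromosome 3 region (14957101 to 14957200, in AT3G42883), with 410, 289 and 8.72 RPM, were all lower in ddb2-3 than in WT by nearly the same ratio, 0.707 to 0.727.

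The 4 regions share the stretch printed in capitals, and pairs of them shared 43.3% to 100% of the 24-base words of the smaller region, so they are not 4 separate measurements. Their summed log2 ratio was -0.48 (-0.52 to -0.44). They held 56.0% of the META1 level in WT, and 29.8% of all Copia reads in WT against 22.4% in ddb2-3. The other 57 META1 regions had a log2 ratio of 0.041 (-8.8e-05 to 0.082), and 35 of them were above WT. Without the 4 regions the Copia sum turned from -0.073 to 0.071 (0.048 to 0.095), or -0.13 relative to the typical region. The next highest META1 region, on chromosome 1 (6707901 to 6708000), stood at 265 RPM in WT against 209 RPM in ddb2-3, a ratio of 0.787 (0.734 to 0.843), and the sixth, on chromosome 5 (9381901 to 9382200), had 130 and 133 RPM.

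Within META1 the ratio went with the level of the region. Regions with a mean under 5 RPM over both libraries had a summed log2 ratio of 0.35 (0.049 to 0.65, n = 11 regions), those at 5 to 20 RPM 0.24 (0.15 to 0.32, n = 27), those at 20 to 100 RPM 0.076 (0.017 to 0.13, n = 17) and those at 100 RPM or more -0.43 (-0.46 to -0.39, n = 6). The last bin includes the 4 highest regions, which share sequence and had -0.48, so its 6 regions are not separate measurements. Over all regions of the data the same bins gave 0.24, 0.21, 0.15 and 0.010, so the ratio was also lower at higher levels there, over a narrower range.

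**Figure D2:**
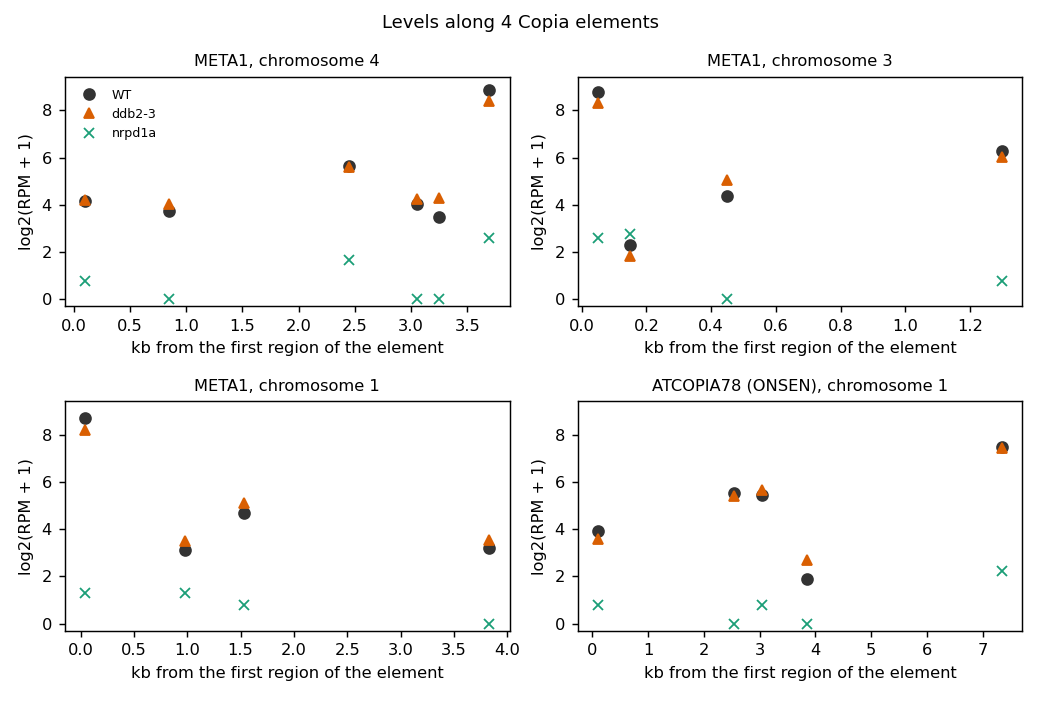
Level in WT, ddb2-3 and nrpd1a as log2(RPM + 1) along 3 META1 elements and 1 ATCOPIA78 element, by the distance of each region's centre from the first region. In each META1 element 1 region near an end stands far above the rest and is lower in ddb2-3, while the highest ATCOPIA78 region is nearly the same in both libraries.

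Along the META1 elements that hold these regions the difference was not shared by all regions. In the chromosome 4 element of 6 regions that ends with the highest region, the ratios ran from 0.727 to 1.79. Its neighbouring region at 7821201 to 7821300 was at 10.3 RPM in WT against 18.5 RPM in ddb2-3, a ratio of 1.79 (1.32 to 2.45). In the chromosome 3 element of 4 regions the ratios ran from 0.647 to 1.61, and in the chromosome 1 element of 4 regions from 0.713 to 1.34. By 2-fold on log2(RPM + 1), where 5.22% of all regions were higher in ddb2-3 and 1.67% lower, 4 META1 regions (6.56%) were higher and 0 lower. They were 14958701 to 14958800 on chromosome 3 (5.24 RPM in WT against 11.5 RPM), 18737601 to 18737700 on chromosome 3 (4.90 and 11.0 RPM), and 1 region each on chromosomes 4 and 5 with only 2 and 1 reads in WT. Some elements of other families did lie on one side of WT in all their regions, where 63.4% of all regions of the data were above WT. In ATCOPIA26 the ratios of the element at 21244601 to 21246300 on chromosome 1 ran from 0.576 to 0.834 (n = 4 regions). Its region at 21244601 to 21245000 (0.736, 0.557 to 0.971) contains those at 21244601 to 21244700 and 21244701 to 21244800, so these are not separate. The intervals of its other regions included 1. For ATCOPIA27 at 64901 to 70200 on chromosome 5 they ran from 1.13 to 1.49 (n = 4), for ATCOPIA22 at 21347101 to 21350400 on chromosome 1 from 1.14 to 1.77 (n = 4) and for ATCOPIA79 at 17024701 to 17029200 on chromosome 1 from 1.04 to 1.86 (n = 5). In these ATCOPIA27 and ATCOPIA22 elements the interval of every single region included 1.

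ONSEN, or ATCOPIA78, had highly covered regions with ddb2-3 levels close to those of WT. Its 13 regions averaged 67.4 RPM in WT against 66.4 RPM in ddb2-3, and the log2 ratio of the sums was -0.023 (-0.074 to 0.029), with 4 regions above WT and 9 below. The chromosome 3 region at 22059601 stood at 176 RPM (WT), 177 RPM (ddb2-3) and 0.727 RPM (nrpd1a). At 7722201 on chromosome 1 the levels were 175, 173 and 3.63 RPM.

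A further region of high abundance, in an untranslated exon of STP1, a gene for a hexose transporter (chromosome 1, 3780801 to 3780900), stood at 152 RPM in WT against 151 RPM in ddb2-3. The 4 highest regions held 73.8% of the family's WT level and had ratios of 0.984 to 1.0, with a summed log2 ratio of -0.012 (-0.072 to 0.048). Over the other 9 regions it was -0.054 (-0.16 to 0.048). Relative to the typical region of the data the family sum was -0.22. The lowest ratio in the family was 0.648 (0.477 to 0.879), in a region 403 bp upstream of AT1G58150 (chromosome 1, 21529601 to 21529700; 15.7 RPM in WT against 10.2 RPM in ddb2-3), and the highest was 1.99 (1.10 to 3.78), in AT1G21945 on 16 WT reads.

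The letters TTCNNGAA, a core of the heat shock element that reads the same on both strands, occurred in 5 of 13 ATCOPIA78 regions (38.5%). They also occurred in 8 of 61 META1 regions (13.1%), 21 of 271 Copia regions (7.75%) and 192 of all 4481 regions (4.28%). The stretch common to the printed ATCOPIA78 regions holds these letters, so the 5 matches are not all separate. Among regions of 100 bases the letters occurred in 3 of 10 ATCOPIA78 regions and in 130 of all 3543 (3.67%). The letters TGGTATCAGAGC on either strand, the usual primer binding site of plant Copia elements, occurred in 2 Copia regions (0.738%) and in 4 of all regions (0.0893%). Neither motif overlaps the other in its letters, and a match describes the sequence only.

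Other families differed in both directions, most of them by less than META1's highest regions. In ATCOPIA27 all 9 regions of 4 elements were above WT. Their mean went from 15.8 RPM in WT to 19.0 RPM in ddb2-3, a log2 ratio of 0.26 (0.14 to 0.39), with single ratios from 1.03, in a region 641 bp downstream of the auxin biosynthesis gene YUC6 (65.9 and 67.8 RPM), to 1.75. ATCOPIA79 was above WT in 6 of 6 regions, at 0.36 (0.11 to 0.62), but 5 of these lay in 1 element. ROMANIAT5 was above WT in 4 of 4 regions, at 0.68 (0.34 to 1.03), with averages of 4.35 RPM (WT) and 6.98 RPM (ddb2-3). ATCOPIA41 stood at 0.33 (0.064 to 0.59) with 5 of 8 regions above WT. All ROMANIAT5 and ATCOPIA41 regions lay within 3 Mb of a centromere, as did 5 of 6 ATCOPIA79 and 5 of 9 ATCOPIA27 regions. Over all regions of the data at that distance 1945 of 2670 were above WT, with a summed log2 ratio of 0.30. Wherever they lay, 63.4% of all regions were above WT.

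On the lower side ATCOPIA37 had a log2 ratio of -0.27 (-0.47 to -0.080), with 6 of 7 regions below WT, and ATCOPIA51 one of -0.16 (-0.27 to -0.041), with 6 of 12 below. The highest ATCOPIA51 region, in AT1G62460 on chromosome 1 (23122801 to 23123200), stood at 107 RPM in WT against 93.2 RPM in ddb2-3, a ratio of 0.870 (0.782 to 0.967). ATCOPIA49 as a family was at -0.0023 (-0.089 to 0.085). Its highest region, in an intron of the expansin gene EXPB6 (chromosome 1, 24429001 to 24429100), stood at 97.1 RPM in WT against 76.4 RPM in ddb2-3, a ratio of 0.788 (0.702 to 0.883). For ATCOPIA22 (0.10), ATCOPIA43 (0.18), ATCOPIA26 (-0.19), ATCOPIA31 (-0.12) and ATCOPIA95 (-0.11) the intervals included 0. Scaled to the typical region, the values of all these families are lower by 0.20, which leaves ATCOPIA27 at 0.066, ATCOPIA41 at 0.13, ATCOPIA79 at 0.16 and ROMANIAT5 at 0.48.

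**Figure D3:**
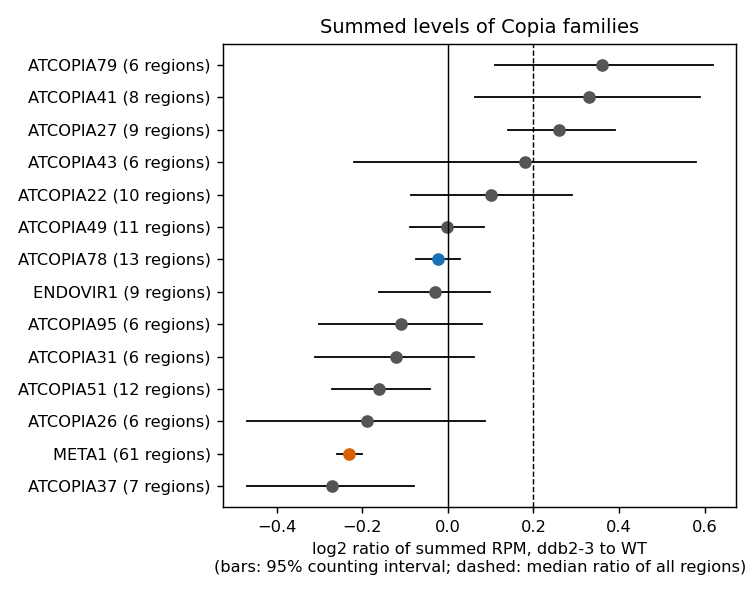
Log2 ratio of summed RPM, ddb2-3 to WT, for the 14 families with 5 or more regions, with 95% counting intervals as bars and the median ratio of all regions (0.20) as a dashed line. META1 (-0.23) has the narrowest interval, ATCOPIA78 lies at -0.023, and ATCOPIA27, ATCOPIA41 and ATCOPIA79 lie above 0.

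ENDOVIR1 had 9 regions and a sum of -0.031 (-0.16 to 0.098). Its highest region, at 17596801 on chromosome 5, was at 55.3 RPM (WT) and 55.1 RPM (ddb2-3). In the same element, in AT5G43800, the region at 17598201 to 17598400, with 93.8% unique 24-base words, had 14.9 and 8.99 RPM, a ratio of 0.604 (0.438 to 0.831). A pair of regions 1437 and 1537 bp upstream of PSK3, a gene for a phytosulfokine peptide precursor, had ratios of 1.44 (0.929 to 2.27) and 1.11 (0.904 to 1.37). The 3 ATRE1 regions had ratios of 0.646 to 1.85, each with an interval that included 1. ATCOPIA4 had 1 region, at 1.35 RPM (WT) and 1.20 RPM (ddb2-3).

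The lowest ratio of any Copia region lay in the ATCOPIA23 copy of AT3G60164, an annotated pseudogene on the arm of chromosome 3, whose sequence is unique in the genome. Its CG-hypo region (22232501 to 22232700) held 40 reads in WT (6.76 RPM), 1 read in ddb2-3 (0.120 RPM) and no read in nrpd1a. On that single ddb2-3 read the level was 56.5-fold lower, with a counting interval of 9.57 to 2285. The CHH-hypo region inside it had 30 reads in WT and 1 read in ddb2-3. The CHG-hypo region around both (22232501 to 22232900) had 9.98 and 4.31 RPM, and its outer 200 bases, from 22232701 on, held 19 reads in WT and 35 in ddb2-3, a ratio of 1.31 (0.726 to 2.42). The lower level was thus measured in the first 200 bases of this locus and not in the outer ones, and these nested regions make up 3 of the 6 lower calls.

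The highest well covered ratio belonged to the ATCOPIA68 region printed above, in an intron of ARF23, a gene for an auxin response factor. It went from 42.8 RPM in WT to 218 RPM in ddb2-3, with no nrpd1a read, and was 5.09-fold higher in ddb2-3 (4.46 to 5.83). Its GA run covered 132 of 165 bases and the median 24-base word occurred 3993 times in the genome. No other Copia region held the letters GA repeated at least 6 times in a row on either strand, and 25 of all 4481 regions (0.558%) did. The other 11 higher calls had 1 to 31 reads in WT. Those in the upper part of the Copia levels were, beside META1, ATCOPIA42 766 bp upstream of AT4G11320 (2.71 and 6.83 RPM, ratio 2.52, 1.43 to 4.71) and ATCOPIA66 on chromosome 2 (1907101 to 1907200; 2.71 and 6.47 RPM, ratio 2.39, 1.35 to 4.48). ATCOPIA31 in AT1G32590 (2.71 and 6.23 RPM) lay just under 2-fold on this scale.

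Of the lower calls outside ATCOPIA23, ATCOPIA89 in AT5G19097 (chromosome 5, 6403301 to 6403500) was at 4.57 RPM in WT against 1.44 RPM in ddb2-3, a ratio of 0.315 (0.145 to 0.643). An ATCOPIA95 region 853 bp upstream of AT5G28000 (chromosome 5, 10019701 to 10019800) was at 4.73 against 1.56 RPM, a ratio of 0.329 (0.156 to 0.656). Both were named after their values were seen. The remaining call, better covered, was ATCOPIA95 near the centromere of chromosome 2 (1549001 to 1549200), at 24.7 RPM in WT against 11.0 RPM in ddb2-3, with no nrpd1a read, a ratio of 0.446 (0.340 to 0.584). ATCOPIA30, 614 bp upstream of BRL2, a gene for a receptor-like kinase related to the brassinosteroid receptor (chromosome 2, 444938 to 445000), had 58.8, 37.0 and 1.45 RPM, a ratio of 0.629 (0.538 to 0.735). A META1 region on chromosome 1 (4408001 to 4408100) had 7.10 and 3.12 RPM, a ratio of 0.439 (0.258 to 0.732). The last 3 had at most 2 reads in nrpd1a.

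Of the CHG and CHH classes, CHH-hypo had the lowest sum, which rested on META1. The 37 CHH-hypo Copia regions averaged 60.4 RPM in WT against 48.8 RPM in ddb2-3, for a log2 ratio of -0.31 (-0.34 to -0.27), while 18 of them were above and 19 below WT. Without the 4 highest META1 regions, 3 of which are in this class, it was -0.095 (-0.15 to -0.046). All 742 CHH-hypo regions of the data had -0.028. The 111 CHH-hyper Copia regions had 26.4 and 27.3 RPM, or 0.044 (0.016 to 0.072), with 67 regions above WT and 44 below it. By 2-fold 7 were higher and 0 lower, or 6.31% and 0%, where 3.59% and 0.512% of all CHH-hyper regions were. The 71 CHG-hyper regions had 5.96 and 6.69 RPM, or 0.17 (0.096 to 0.24), against 0.37 for all CHG-hyper regions, and relative to the typical region the Copia value was -0.031. The 52 CHG-hypo regions had 4.98 and 5.14 RPM, or 0.047 (-0.047 to 0.14), against 0.20 for all CHG-hypo regions. Of them 1 was higher and 3 lower, or 1.92% and 5.77%, where 5.51% and 4.80% of all CHG-hypo regions were.

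Few Copia regions belonged to the CG classes. The 5 CG-hyper regions lay in 1 element each of ATCOPIA26, ATCOPIA51 and META1 and ran from 2.37 to 2.87 RPM in WT and from 1.56 to 4.07 RPM in ddb2-3, with 2 above and 3 below WT and a sum of 0.057 (-0.37 to 0.49). Of the 2 CG-hypo regions, 1 is the ATCOPIA23 region above. The other, ATCOPIA1 404 bp upstream of AT4G05071, had 1.86 and 0.959 RPM, or 11 and 8 reads, a ratio of 0.515 (0.180 to 1.41). The log2 ratio of their sum was -3.0 (-4.21 to -1.96), against -0.70 for all 48 CG-hypo regions.

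Near the centromeres more Copia regions were above WT than on the arms, and the same held for all regions. Within 3 Mb of a centromere 81 of 127 regions were above WT, with a median log2 ratio of 0.16 (0.051 to 0.31 by ranks of regions). On the arms 72 of 144 were above WT, with a median of -0.00046. Over all regions 1945 of 2670 pericentromeric ones were above WT, with a median of 0.31, and 896 of 1811 on the arms, with a median of -0.0049. Relative to the typical region the Copia medians were 0.014 near the centromeres and -0.14 on the arms. The sums were 0.025 (-0.0067 to 0.058) near the centromeres and -0.14 (-0.16 to -0.11) on the arms, and both hung on few regions. Without META1 they were 0.35 (0.30 to 0.40) and -0.063 (-0.099 to -0.027), and without ATCOPIA68 as well the pericentromeric sum was 0.11 (0.061 to 0.16), or -0.087 relative to the typical region. Pericentromeric Gypsy regions had 0.49. The pericentromeric CHH-hyper Copia regions had 0.50 (0.44 to 0.55), which was 0.20 (0.14 to 0.26) without ATCOPIA68, and the CHH-hyper regions of the arms had -0.12 (-0.15 to -0.083).

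**Figure D4:**
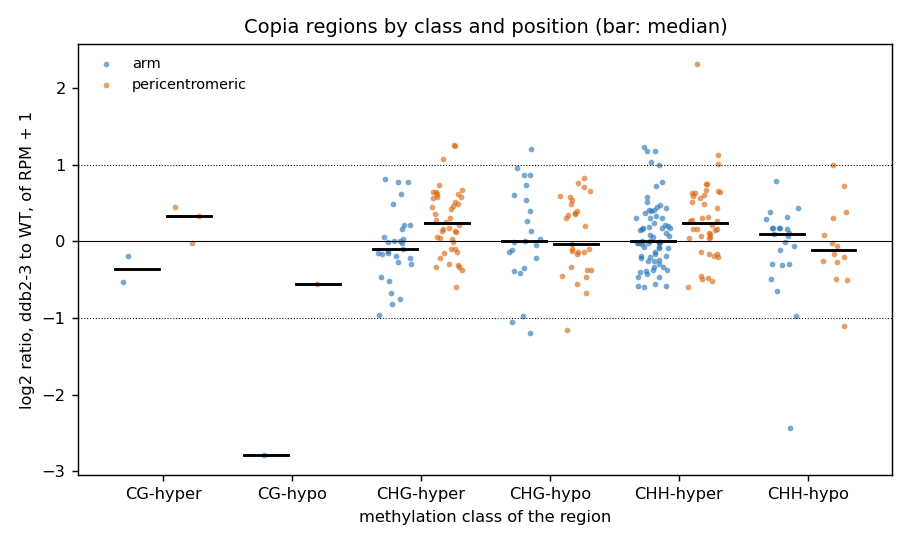
Log2 ratio, ddb2-3 to WT, of RPM + 1 for each Copia region by methylation class and position, with medians as bars and 2-fold as dotted lines. The pericentromeric medians of CHG-hyper and CHH-hyper regions lie at 0.24, and the arm medians at -0.093 and 0.0037.

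Gene context divided the regions less clearly. For the 151 members inside pseudogenes or transposon genes the summed log2 ratio was -0.12 (-0.15 to -0.086), and 126 of them outside META1 had -0.0034 (-0.061 to 0.055). The 44 regions within 2 kb upstream of a gene had -0.25 (-0.29 to -0.22), and 30 of them outside META1 had -0.012 (-0.079 to 0.056). Intergenic regions (n = 46) had 0.068 (0.016 to 0.12) and those within 2 kb downstream (n = 18) 0.014 (-0.051 to 0.079). Over all regions the same contexts gave 0.33 in pseudogenes or transposon genes, -0.046 upstream, 0.25 intergenic, -0.042 downstream and 0.16 in protein-coding genes. In protein-coding genes 12 Copia regions had 0.41 (0.34 to 0.48), and -0.17 (-0.25 to -0.089) without ATCOPIA68. Of the 12, 9 were below WT, where 173 of all 399 regions in protein-coding genes were.

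Among these genes was AT1G58602, known as RPP7, a disease resistance gene against downy mildew whose transcript can end early at a Copia insertion in an intron. An ATCOPIA8B region in an intron of it (chromosome 1, 21748401 to 21748500) stood at 1.86 RPM in WT against 2.76 RPM in ddb2-3, with no nrpd1a read, a ratio of 1.48 (0.694 to 3.37), which includes 1. No Copia region lay in or within 2 kb of AT4G16860, AT4G16890, AT4G16950 or AT3G07610.

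In nrpd1a the Copia siRNAs were nearly absent. The library kept 1.93% (1.64 to 2.27) of the summed WT level, against 3.54% over all regions, and the mean was 0.413 RPM. No read was found in 214 of 271 regions (79.0%, against 77.1% of all regions), although 1 read there already equals 0.727 RPM. By the 2-fold rule 251 regions were lower, where 92.9% of all regions were, and 0 were higher, where 0.246% were. The binomial test called 176 lower (64.9%, against 71.2% of all regions). Among the 255 Copia regions that reached 1 RPM in WT, 238 kept under 10% of that level, where 91.9% of all such regions did. For 48 of them WT was abundant enough that 3 reads of nrpd1a would be under 10%, and 46 were. Over all regions of the data the same held for 978 of 1012.

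CHG-hypo Copia regions had 0 reads in nrpd1a over 52 regions, which allows up to 1.04% of the WT level by the exact interval. CHG-hyper regions kept 1.55%, CHH-hyper regions 2.33% and CHH-hypo regions 1.66%. Of the families, META1 kept 2.22% and ATCOPIA78 kept 2.07%. The lowest ratio by the 3-read floor was in the META1 region at 6538418 on chromosome 1, from 414 RPM to 2 reads, a ratio of 0.00351 (0.000425 to 0.0127). The META1 regions at 6707901 on chromosome 1 and 7821601 on chromosome 4 had ratios of 0.00822 (0.00169 to 0.0241) and 0.0111 (0.00446 to 0.0229).

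META1 also held most of what remained, with 61.0% of the Copia reads in nrpd1a against 53.3% in WT. It kept 2.22% (1.79 to 2.71) of its WT level, where all Copia regions kept 1.93% (1.64 to 2.27). Of the 13 regions with more than 3 nrpd1a reads, 7 were META1 and 4 were ATCOPIA78. These families averaged 50.5 and 67.4 RPM in WT, against 21.3 RPM for all Copia regions. The share of all regions with more than 3 nrpd1a reads was not counted. The region 460 bp downstream of GALS3, a gene for a galactan synthase (chromosome 4, 10899601 to 10899700), was at 20.8 RPM (WT), 19.5 RPM (ddb2-3) and 8.72 RPM (nrpd1a, 12 reads), the last being 41.9% of WT. Next to the high chromosome 3 region, the bases from 16039201 to 16039300 were at 3.89 RPM (WT), 2.52 RPM (ddb2-3) and 5.81 RPM (nrpd1a), on 23, 21 and 8 reads. This was the 1 Copia region above WT in nrpd1a, and the neighbouring 100 bases had 442 RPM in WT against 5.09 RPM in nrpd1a. The 4 META1 regions that were lower in ddb2-3 and the 4 ATCOPIA78 regions with ratios near 1 both had few reads in nrpd1a, at 0.351% to 2.13% and 0.412% to 3.03% of WT.

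**Figure D5:**
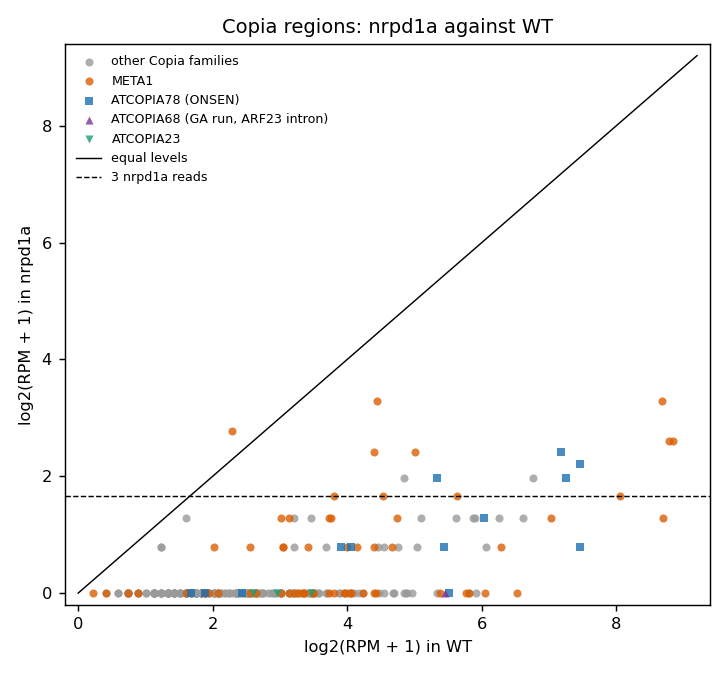
Level of each Copia region in WT (x axis) and nrpd1a (y axis) as log2(RPM + 1), with equal levels on the solid line and 3 nrpd1a reads on the dashed line. Most points lie at 0, 13 regions have more than 3 reads, and 1 META1 region lies above equal levels.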

How the data were processed

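The authors deposited, for each library, 6 tables of 24-nt siRNA levels over differentially methylated regions, in RPM, the unit of library-scaled reads, as a total per region, per the file headers. CASAVA 1.8.2, Bowtie and bedtools were used, with the TAIR10 genome, per the submitters' processing notes. The reads in the RPM denominator, the treatment of reads with several hits and the genotypes compared to define the regions are not stated in the labels or file headers. If multi-hit reads are counted at each copy, repeat families weigh more.

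Regions were pooled over classes and made distinct by coordinates. Each RPM value was a whole number of reads within 0.1 read for 100% of values, with a largest deviation of 0.00418 read. The recovered reads gave exact binomial (Clopper-Pearson) 95% intervals for sums and ratios. Intervals of medians came from the ranks of the region values and take regions as separate observations. Region ratios used a pseudocount of 1 RPM, with regions kept that reached 1 RPM in any library, and a 2-fold size rule, because 1 library per genotype allows no test. The binomial test on recovered reads, adjusted at 0.05, was an alternative. The script was tested on simulated data. Genes, 24-base word counts and sequences came from the TAIR10.1 RefSeq reference, and 334 of 341 listed gene entries (97.9%) overlapped the same locus there. Pericentromeric means within 3 Mb of an approximate centromere. Python 3.11.15, numpy 2.4.6, scipy 1.17.1 and matplotlib 3.10.9 were used.

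The members, lists and named regions were chosen with earlier results of these data known. Named were, among the members above the median level, the 6 highest and 6 lowest ddb2-3 to WT ratios, the 6 highest WT levels, the 4 highest nrpd1a levels and 4 largest drops, all CG regions, the families and genes of fixed lists, and the highest region of each family of 8 or more. META1 and ATCOPIA68 were set aside in some sums after seeing the data, as was the split by the 4 highest META1 regions. The sequence and values of 1 ATCOPIA78 region are not reported here.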

Additional observations from a re-analysis of the deposited data

How the results depend on the processing

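No paired analysis was possible because each genotype had 1 library. Over the alternatives run (128), 62 values stayed within their interval, or within 1.5 times for counts, 52 moved further with the same sign and 14 changed sign, 7 of these from a value whose interval excluded 0. Scaling to the median ratio gave -0.27 for the Copia sum, -0.34 for the arms, -0.17 for the pericentromeric regions, -0.031 for CHG-hyper, -0.15 for CHG-hypo, -0.16 for CHH-hyper, -0.51 for CHH-hypo, -0.083 for the median region, -0.099 for ATCOPIA22 and -0.020 for ATCOPIA43. Without the 3 highest regions the Copia sum was 0.027, the arms -0.044, the pericentromeric regions 0.13, CHH-hyper 0.12 and CHH-hypo -0.20. Over regions with at least 90% unique 24-base words the sums were 0.0095 for Copia, -0.19 for the arms, 0.27 for the pericentromeric regions, -0.083 for CHG-hypo, 0.14 for CHH-hyper and -0.082 for CHH-hypo. Leaving out regions that overlap another gave -0.12 for Copia, -0.092 for the pericentromeric regions and -0.041 for CHH-hyper, and leaving out the GA run gave -0.12 for Copia. Without META1, chosen after seeing the data, the values were 0.086 for Copia, -0.063 for the arms, 0.35 for the pericentromeric regions, 0.17 for CHH-hyper and -0.13 for CHH-hypo. A limit of 5 Mb gave -0.11 for the arms and -0.044 for the pericentromeric regions, and 2 Mb gave 0.20 for the latter. The 12 higher regions became 1 with a pseudocount of 5 RPM, 3 of 101 at a minimum of 10 RPM, 3 of 61 over unique regions (4.92%, against 4.43%) and 34 by the binomial test. The 6 lower regions became 1 with that pseudocount, 1 of 101 at that minimum, 3 of 263 without overlapping regions and 23 by the binomial test. Over unique regions 5 of 61 were lower (8.20%, against 2.21%), 3 of them the nested ATCOPIA23 regions. The 251 regions lower in nrpd1a became 133 with a pseudocount of 5 RPM, 101 of 101 at a minimum of 10 RPM, 54 of 61 over unique regions (88.5%, against 92.6%) and 128 with nrpd1a set to the floor of 3 reads. The counts at the minimum and over unique regions come from fewer regions. The cause of the shifts in share and of the others was not tested. Depth limits the nrpd1a values, since 3 reads equal 2.18 RPM.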
